A study of Rattus norvegicus with 14 samples.

Results

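The 99 genes encode enzymes, G protein subunits, IP3 receptor channels and scaffolds, most of which carry signals through cAMP, phosphoinositides and MAP kinases. They also include 5 subunits of AMPK, a sensor of low energy. They were taken by symbol: every probe of the array whose annotated gene symbol starts as an adenylyl cyclase (Adcy), phosphodiesterase (Pde), PKA or AMPK subunit (Prka), protein kinase C (Prkc), PI3-kinase subunit (Pik3), Akt kinase, MAP kinase or one of its upstream kinases (Mapk, Map2k, Map3k), phospholipase C (Plc), IP3 receptor (Itpr) or G protein subunit (Gna, Gnb, Gng). This gave 103 probes of 4952, and 99 of the 4682 features tested after probes of 1 gene had been averaged. The rule uses symbols alone and no measured value, but it was chosen with earlier results of these data known. All 99 genes have a value on every array. In 1 of them, Gnaq, the sugar ratio passed the test between 4 h and 20 min of perfusion, and that call was lost in most alternative fits.

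The RNA came from small intestine of rats aged 20 days, perfused with solutions named HG and HF in the labels, taken here to mean high glucose and high fructose, a reading that rests on what is known of the study. Each 2-colour array compared an HG with an HF sample of the same number, on 5 arrays for perfusion of 4 h (pairs 1 to 5) and on 4 arrays for 20 min (pairs 1 to 4). A further 3 arrays held the same RNA in both channels (RNA of 1HG, 3HG and 3HF, all from 4 h of perfusion) and are called the same-RNA arrays. Array 6 repeats pair 2 of the 4 h set, and 1 array was hybridised with labelling primers alone; neither entered the tests. Strain and sex of the rats are not used here, the labels name no intestine that saw neither solution, and nothing in the labels says whether pairs came from separate animals, so p-values reflect only how these arrays vary, which may be technical. A value below is the log2 ratio of an array after its median over all probes had been set to 0, with base 2 as an assumption. The direction of the ratio is not stated. A positive ratio likely means more RNA with HF, because the fructose transporter gene Slc2a5 stood at 1.65 ± 0.25 (SD, n = 5) on the 4 h arrays and at -1.66 on array 6, in whose title the digits 5 and 3 follow HG and HF, as for the dyes Cy5 and Cy3. Turning the sign would turn every difference below and leave each p-value as it is. A ratio carries no level, so the tissue could not be checked against its marker genes, and genes cannot be ranked by how much RNA they make.

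As background, hormones, transmitters and nutrients act on receptors that release the alpha subunit of a G protein from its beta and gamma subunits. The alpha subunit of Gs drives adenylyl cyclases to make cAMP, which activates PKA and is broken down by phosphodiesterases, while the alpha subunit of Gq drives phospholipase C, whose products IP3 and diacylglycerol release calcium through IP3 receptors and activate protein kinase C. Growth factors and insulin act through PI3-kinase and Akt and through cascades in which a MAP3 kinase activates a MAP2 kinase and that in turn a MAP kinase. In the small intestine these routes are known to govern secretion of chloride, absorption and trafficking of transporters, including those for sugar, and contraction of the muscle coat.

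The arrays differed in how far they can carry these genes. Over the 99 genes the SD of the ratios lay between 0.27 and 0.37 on the 9 arrays of HG against HF in the tests, and the medians between -0.07 and 0.04. The SD was 0.94 on the same-RNA array 1HG, where 7 of the genes lay beyond 1 in size although both channels held the same RNA, and 0.95 on array 6, where 12 did. On the same-RNA arrays 3HG and 3HF it was 0.43 and 0.27. The primer array had an SD of 0.15 and none of the 99 beyond 0.5.

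**Figure D1:**
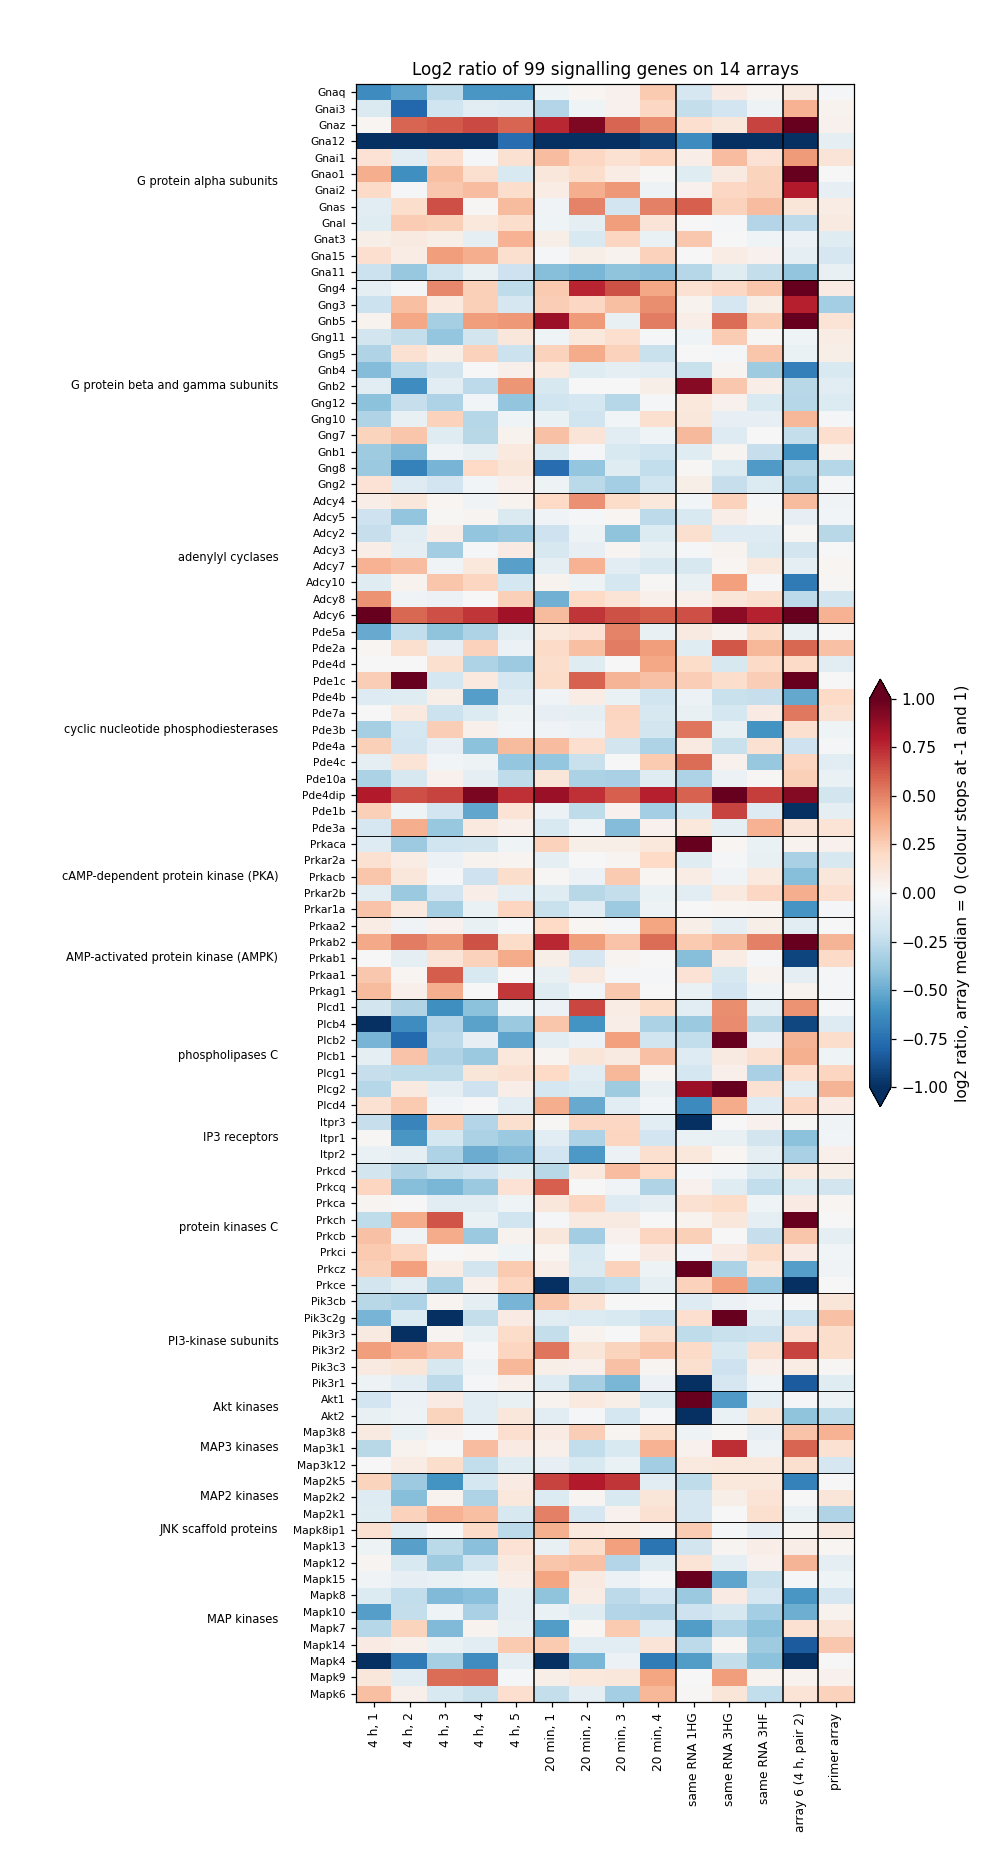
Log2 ratios of the 99 genes (rows, grouped by role and sorted within a role by the difference between 4 h and 20 min) on all 14 arrays (columns). Red is a positive ratio, likely more RNA with HF, and colours stop at -1 and 1. Gna12 is blue and Adcy6 and Pde4dip are red on the same-RNA arrays too, and the column of array 1HG stands apart from 3HG and 3HF.

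All features of the array were fitted together and adjusted together, and a gene counted as called where limma gave an adjusted p (Benjamini-Hochberg) below 0.05. For 4 h against the same-RNA arrays 0 of the 99 genes were called, against 0.0641% of all features. An unadjusted p below 0.05 was reached by 8 genes with a negative and 1 with a positive difference, against 5.21% and 4.76% of all features. For 20 min against the same-RNA arrays 0 genes were called (background 0.0427%), with 3 negative and 2 positive at an unadjusted p below 0.05 (2.63% and 2.58% of all features). Between 4 h and 20 min 1 gene was called (background 0.598%), with 7 negative and 1 positive at an unadjusted p below 0.05 (7.22% and 6.3%). The shares of the 99 genes were 8.08% and 1.01% at 4 h, 3.03% and 2.02% at 20 min and 7.07% and 1.01% between the times. The negative share at 4 h lay above its background. The positive shares at 4 h and between the times lay below theirs. Each did so by a few genes of 99. Several of the negative differences at 4 h leaned on a single same-RNA array. Without 1HG Prkaca moved from -0.67 to -0.16 and Gnb2 from -0.54 to -0.30. Without 3HG Plcb2, Pik3c2g and Plcg2 moved from -1.24, -0.73 and -0.92 to -0.27, -0.40 and -0.59. Differences below 0 were found in 64 of 99 genes at 4 h (51.5% of all features), 46 at 20 min (49.4%) and 60 between the times (52%). The medians over the 99 genes were -0.05, 0.01 and -0.04, and over all features -0.01, 0.00 and -0.01. The comparisons of 4 h and of 20 min with the same RNA share the same-RNA arrays and each shares arrays with the comparison of the times.

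Genes whose 2 groups of arrays did not overlap numbered 5 of 99 for 4 h against same RNA (Gnaq, Pde5a and Plcg2 lower, Gna15 and Prkag1 higher), against 6.71% of all features. They numbered 9 for 20 min against same RNA (Gna11, Gnb2, Map3k12, Pik3c2g, Plcg2 and Prkar1a lower, Gng3, Map3k8 and Pik3cb higher), against 7.01%. They numbered 4 between the times (Gnaq, Pde5a and Prkaca lower and Gna11 higher at 4 h), against 6.54%. None of these counts lies far above its background.

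**Figure D2:**
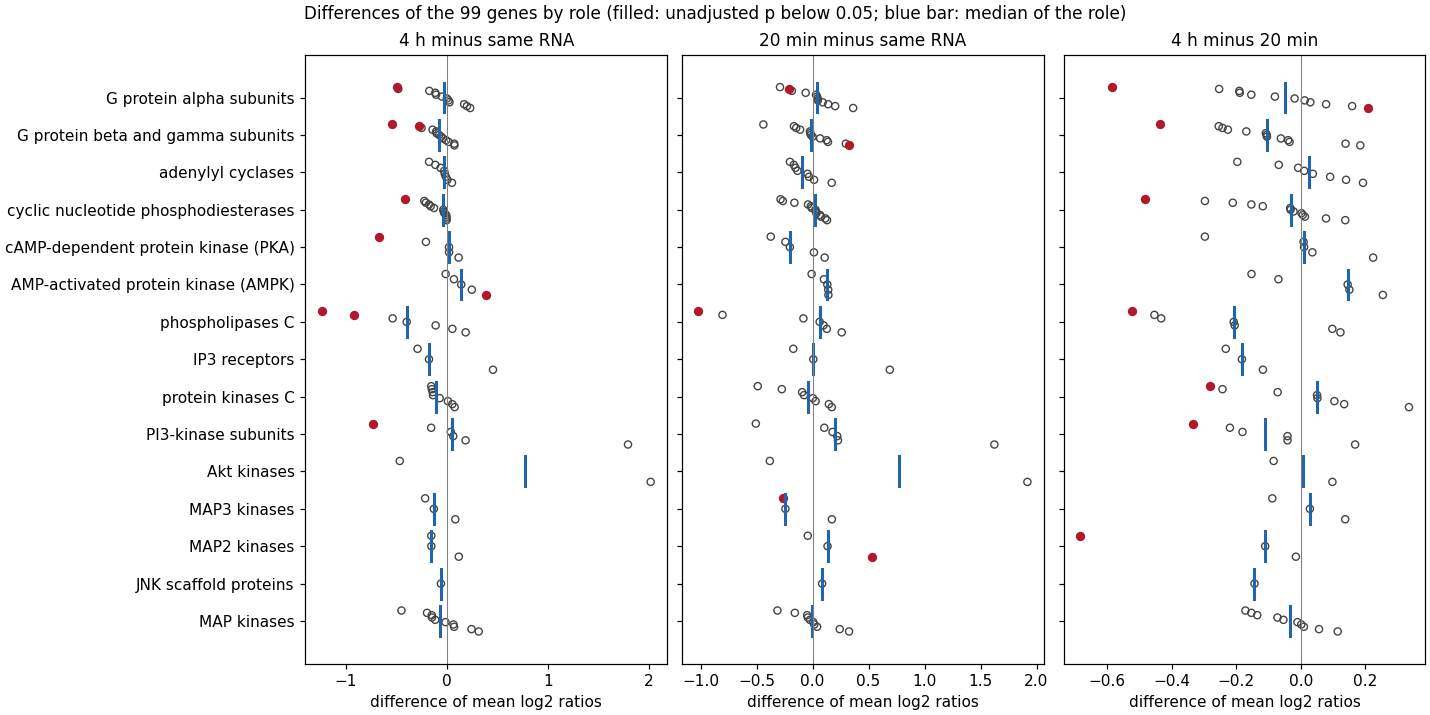
Difference of mean log2 ratios for each of the 99 genes (points), by role (rows), in the 3 comparisons (panels, with their own scales). Filled points have an unadjusted p below 0.05 and blue bars are the median of a role. The phosphodiesterases lie at or below 0 at 4 h against same RNA, and Gnaq is the filled point at -0.59 among the alpha subunits between the times.

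The G protein alpha subunits held the called gene. Gnaq encodes the alpha subunit of Gq, which activates phospholipase C beta. Its ratios were -0.63, -0.53, -0.26, -0.58 and -0.58 on the 4 h arrays, -0.04, 0.02, 0.04 and 0.26 on the 20 min arrays, and -0.17, 0.08 and 0.02 on the same-RNA arrays 1HG, 3HG and 3HF. All 5 arrays at 4 h lay below all 7 others, while the 20 min and same-RNA arrays overlapped. Between the times Gnaq differed by -0.59 ± 0.10 (SE; 1.5-fold; 95% interval -0.81 to -0.36; adjusted p = 0.0312). Against the same-RNA arrays the difference at 4 h was -0.50 ± 0.11 (adjusted p = 0.214), and at 20 min it was 0.09 ± 0.12 (adjusted p = 0.952). The size of the difference between the times moved little, from -0.65 to -0.52 over 19 alternatives, but the adjusted p ranged from 0.0208 to 0.217 and the call held in 6 of the 19. Of the 9 fits with 1 array left out it held in 1, without 4 h replicate 3, and it was lost without 4 h replicate 1, 2, 4 or 5 and without any of the 20 min arrays (adjusted p between 0.052 and 0.109). On array 6, which repeats pair 2 (-0.53 in the 4 h set), the ratio of Gnaq was 0.09 as deposited. That value lay 0.06 above the same-RNA median, so array 6 did not repeat the ratio of pair 2 in either sign.

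Gna11, the nearest relative of Gnaq, also couples to phospholipase C and differed the other way between the times. Its ratios were -0.21, -0.38, -0.20, -0.08 and -0.21 at 4 h and -0.43, -0.46, -0.40 and -0.41 at 20 min. The same-RNA arrays gave -0.29, -0.12 and -0.24, so the ratio was negative on all 12 arrays and lowest on those of 20 min. From same RNA Gna11 differed by 0.00 ± 0.09 at 4 h (SE, adjusted p = 0.995) and by -0.21 ± 0.09 at 20 min (adjusted p = 0.801). The difference between the times was 0.21 ± 0.08 (SE; adjusted p = 0.28). Its 2 probes gave differences of 0.30 and 0.12. Each probe alone varied more at 20 min than their average, whose SD was 0.02. Their means there were -0.52 ± 0.24 and -0.33 ± 0.22 (SD, n = 4). Gna15, another subunit of the Gq class, stood at 0.24 ± 0.15 (SD, n = 5) at 4 h and 0.04 ± 0.04 (n = 3) on the same-RNA arrays, which did not overlap. That difference was 0.20 ± 0.10 (SE; adjusted p = 0.492).

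Over the 12 arrays in the tests the alpha subunit farthest from 0 was Gna12, and it was present without any sugar comparison. Its means were -1.49 ± 0.48 (SD, n = 5) at 4 h, -1.30 ± 0.23 (n = 4) at 20 min and -1.01 ± 0.36 (n = 3) on the same-RNA arrays, where both channels held the same RNA. The primer array gave -0.09. Gnaz, an inhibitory subunit known from neurons and platelets, was positive on all 12 arrays, with means of 0.49, 0.68 and 0.32. Gnai2, which inhibits adenylyl cyclase, was measured by 2 probes that disagreed. Their means at 4 h were 0.44 ± 0.24 and -0.07 ± 0.25 (SD, n = 5). At 20 min they were 0.43 ± 0.20 and -0.02 ± 0.37 (n = 4). From same RNA these probes differed in opposite directions, by 0.34 and -0.29 at 4 h and by 0.33 and -0.24 at 20 min. Their average differed by -0.02 ± 0.12 (SE) between the times. The other inhibitory subunits Gnai1 and Gnai3 had differences of -0.15 and -0.25 between the times, with adjusted p of 0.521 and 0.519. Gnas, the alpha subunit of Gs that turns on adenylyl cyclase, had means of 0.21 ± 0.29, 0.19 ± 0.36 and 0.38 ± 0.19 (SD) at 4 h, at 20 min and with the same RNA, so its arrays overlapped in all groups. Gnat3, the alpha subunit gustducin of taste and tuft cells that serves sweet taste, stayed within 0.35 of 0 on every array in the tests and differed by 0.08 ± 0.11 (SE; adjusted p = 0.843) between the times. Gnao1 and Gnal, the neuronal and olfactory subunits, differed by -0.08 and 0.03. Gnao1 read -0.61 on 4 h replicate 2 and between -0.16 and 0.37 on the other 4 h arrays.

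Promoter sequence was available for 80 of the 99 genes in RefSeq's tables for GRCr8, from 250 bases before to 50 after the annotated start. Both strands were searched for the core of the cAMP response element, TGACG, for the full palindrome TGACGTCA, which contains that core, and for the E-box CACGTG, a form of which carbohydrate response elements are built. The core was found in 22.5% of the 80 promoters and in 21.2% of all 33469, the full element in 2.5% and 1.83%, and the E-box in 7.5% and 6.42%. The full element was found in Gnao1 and Mapk10. The 4 genes whose arrays did not overlap between 4 h and 20 min are shown, read 5′ to 3′, with matches in capitals.
Gnaq (GRCr8 chr1:222852203-222852502, plus strand): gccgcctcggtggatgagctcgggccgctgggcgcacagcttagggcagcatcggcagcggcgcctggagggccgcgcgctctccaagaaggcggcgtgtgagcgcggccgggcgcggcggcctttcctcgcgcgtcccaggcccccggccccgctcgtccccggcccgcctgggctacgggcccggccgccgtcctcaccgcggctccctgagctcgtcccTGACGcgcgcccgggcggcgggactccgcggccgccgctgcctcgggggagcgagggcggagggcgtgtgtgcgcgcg
Pde5a (GRCr8 chr2:213543776-213544075, plus strand): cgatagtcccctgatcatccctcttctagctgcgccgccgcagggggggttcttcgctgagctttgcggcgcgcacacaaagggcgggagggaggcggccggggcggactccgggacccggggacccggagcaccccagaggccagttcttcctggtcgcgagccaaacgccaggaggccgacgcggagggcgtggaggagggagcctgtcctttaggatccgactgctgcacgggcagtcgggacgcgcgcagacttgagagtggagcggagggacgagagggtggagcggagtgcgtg
Prkaca (GRCr8 chr19:41083140-41083439, minus strand): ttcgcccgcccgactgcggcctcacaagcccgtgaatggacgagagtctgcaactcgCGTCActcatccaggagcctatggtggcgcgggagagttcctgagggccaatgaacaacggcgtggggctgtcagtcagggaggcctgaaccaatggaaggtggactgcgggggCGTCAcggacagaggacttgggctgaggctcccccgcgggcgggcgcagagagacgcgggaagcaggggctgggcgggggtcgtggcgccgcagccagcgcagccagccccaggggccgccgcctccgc
Gna11 (GRCr8 chr7:8814035-8814334, plus strand): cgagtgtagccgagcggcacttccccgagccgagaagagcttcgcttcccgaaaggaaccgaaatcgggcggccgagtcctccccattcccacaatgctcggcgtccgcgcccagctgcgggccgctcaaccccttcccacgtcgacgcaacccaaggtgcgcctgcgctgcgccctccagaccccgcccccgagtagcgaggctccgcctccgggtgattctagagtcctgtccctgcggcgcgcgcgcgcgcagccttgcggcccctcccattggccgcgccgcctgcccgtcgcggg
Gnaq holds 1 core of the element, whose first base lies 28 bases before the start, and Prkaca holds 2, with first bases 193 and 79 bases before it. No match of the 3 motifs was found in these windows of Pde5a and Gna11. The GC content is 80.7% for Gnaq, 69.7% for Pde5a, 70.3% for Prkaca and 72% for Gna11. A match is a string of letters and was not tested for binding.

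**Figure D3:**
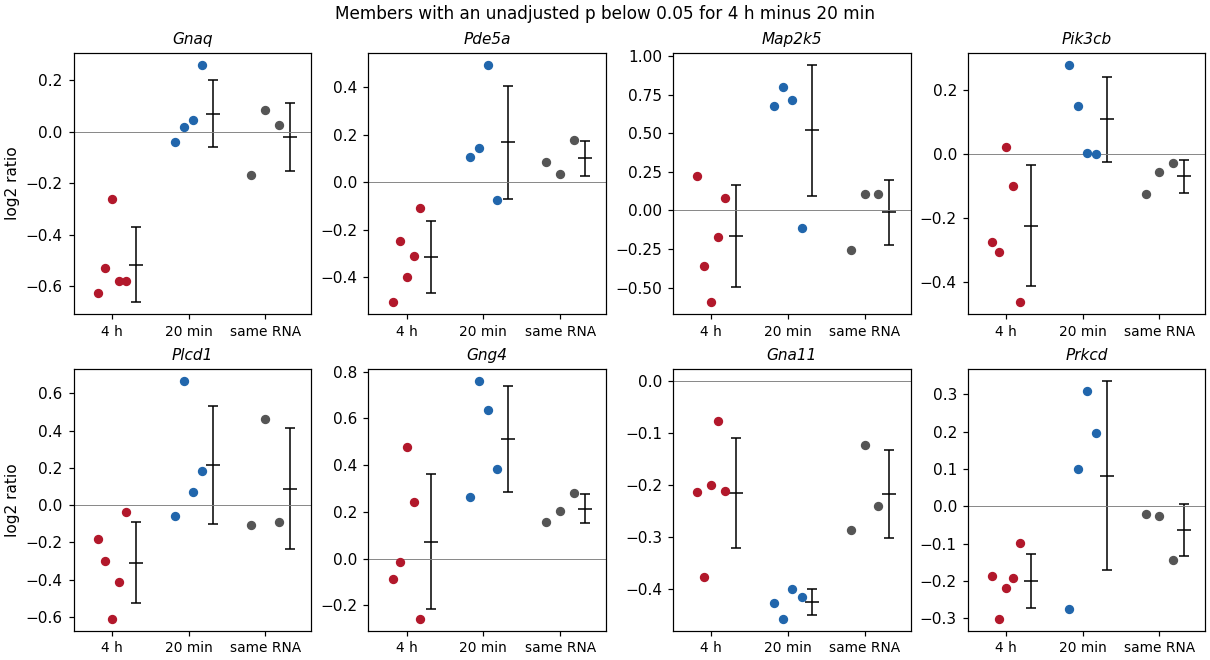
Log2 ratio of each array (points) for the 8 genes with an unadjusted p below 0.05 between 4 h and 20 min, with the mean and SD of each group (bars, n = 5, 4 and 3). Each panel has its own scale. The 4 h arrays of Gnaq and Pde5a lie below all others, and Gna11 is negative in all 3 groups.

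Among the 13 beta and gamma subunits, which hold the alpha subunit at the membrane and act on effectors of their own, 11 had a difference below 0 between the times (median -0.11) and 0 were called. Gng4 had the smallest p. Its ratios were -0.09, -0.01, 0.48, 0.24 and -0.26 at 4 h and 0.26, 0.76, 0.63 and 0.38 at 20 min, with the same-RNA arrays between 0.16 and 0.28. The groups overlapped, and the difference was -0.44 ± 0.15 (SE; adjusted p = 0.222). Gng3 differed by 0.33 ± 0.14 between 20 min and same RNA (adjusted p = 0.801), with all 4 arrays at 20 min, from 0.21 to 0.47, above all same-RNA arrays. Gng12 was at -0.28 ± 0.16 (SD, n = 5) at 4 h against 0.00 ± 0.13 (n = 3) (difference -0.27 ± 0.11, SE; adjusted p = 0.465). Gng2 had the largest difference above 0 between the times, 0.18 ± 0.10 (adjusted p = 0.482). The difference of Gnb2 was -0.54 ± 0.22 at 4 h (adjusted p = 0.453) and -0.30 without 1HG, on which Gnb2 read 0.91. Gnb1 and Gnb4 differed by -0.03 and -0.11 between the times, and Gnb5, the partner of the RGS proteins of neurons, by -0.24 ± 0.21. The gamma subunits Gng5, Gng7, Gng8, Gng10 and Gng11 differed by -0.17, -0.04, 0.14, -0.06 and -0.23, with overlapping arrays.

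The 8 adenylyl cyclases, which make cAMP, gave no unadjusted p below 0.05 in any comparison, and 0 were called. Differences at 4 h against same RNA ran from -0.18 for Adcy2 to 0.05 for Adcy7. Adcy4 had the smallest p between the times, with 0.06, 0.11, 0.02, -0.03 and 0.04 at 4 h and 0.20, 0.45, 0.19 and 0.11 at 20 min, a difference of -0.20 ± 0.09 (SE; adjusted p = 0.387), or -0.12 without 20 min replicate 2. The groups met at 0.11, the highest array at 4 h and the lowest at 20 min. Adcy6, an isoform that calcium inhibits, was positive on all 12 arrays, from 0.32 to 1.04, with means of 0.76 ± 0.18 at 4 h and 0.77 ± 0.12 (SD) with the same RNA, a difference of -0.01 with a 95% interval from -0.29 to 0.27. Adcy10, the soluble cyclase that bicarbonate activates, had differences of -0.06 ± 0.14 and -0.15 ± 0.15 (SE) from same RNA at 4 h and 20 min. Adcy3, Adcy5 and Adcy8 differed by 0.01, -0.07 and 0.14 between the times.

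The phosphodiesterases close the cAMP and cGMP signal. The symbol rule took 13 genes, of which 12 encode such enzymes and Pde4dip encodes myomegalin, a scaffold that binds Pde4d. At 4 h against same RNA all 13 differences lay below 0, against 51.5% of all features, with a median of -0.03 and 8 to 13 below 0 over the other settings. Several were near 0, since Pde3b, Pde4b, Pde4dip and Pde7a lay at -0.01 or nearer. At 20 min 6 of 13 lay below 0. Pde5a, the cGMP phosphodiesterase of smooth muscle, stood apart. Its ratios were -0.51, -0.25, -0.40, -0.31 and -0.11 at 4 h, 0.11, 0.14, 0.49 and -0.07 at 20 min, and 0.09, 0.04 and 0.18 on the same-RNA arrays. All 4 h arrays lay below all others. The difference was -0.48 ± 0.12 (SE; 1.40-fold; adjusted p = 0.121) between the times and -0.41 ± 0.13 (adjusted p = 0.35) from same RNA, and neither passed. It ran from -0.56 to -0.37 over the alternatives between the times, with adjusted p from 0.0892 to 0.274. On array 6 Pde5a stood at -0.07.

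Pde2a, which cGMP stimulates, had means of 0.06 ± 0.14 (SD, n = 5) at 4 h and 0.35 ± 0.14 (n = 4) at 20 min, a difference of -0.30 ± 0.14 (SE; adjusted p = 0.385). The cAMP phosphodiesterases Pde4a, Pde4b, Pde4c and Pde4d differed by -0.02, -0.12, 0.00 and -0.21 between the times. The calcium-dependent enzymes Pde1b and Pde1c differed by 0.08 and -0.15, and Pde3a and Pde3b, which cGMP inhibits, by 0.14 and -0.03. Pde7a and Pde10a differed by -0.03 and 0.01. Pde4dip read between 0.59 and 1.00 on all 12 arrays, with a mean of 0.76 at 4 h, 0.74 at 20 min and 0.76 with the same RNA.

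Marker genes of other cell types are given beside the ratios of Gnaq and Pde5a, and 0 were called between the times in any list. Of 6 measured smooth muscle genes 5 differed below 0 between the times and 1 had an unadjusted p below 0.05, Cnn1, which encodes calponin (-0.47; adjusted p = 0.274). The mean ratio of that list ran from -0.29 to 0.00 on the 4 h arrays, from -0.11 to 0.17 at 20 min and from -0.02 to 0.44 on the same-RNA arrays. Of 4 endothelial genes 3 lay below 0, with Tek, an endothelial receptor, at -0.40 (adjusted p = 0.172), and list means of -0.32 to -0.13, -0.18 to -0.03 and -0.08 to 0.06. Of 9 enterocyte genes 6 lay below 0 and 3 above, and 4 had an unadjusted p below 0.05 (limma). These were Apoa1 (-0.44, adjusted p = 0.126), Cdx2 (-0.36), Apoa4 (-0.39) and Fabp2 (-0.50). The enterocyte list means were -0.34 to -0.15, -0.25 to 0.02 and -0.35 to 0.00. Median differences between the times were -0.36 for the enterocyte list and -0.08 for both the smooth muscle and the endothelial list. The fibroblast (5 of 6), enteroendocrine (7 of 9) and interstitial Cajal (1 of 1) lists also lay mostly below 0. Their median differences were -0.05, -0.09 and -0.09. The goblet, T and B cell, and macrophage and mast cell lists were split evenly. Other lists lay the other way, with all 5 Paneth cell genes (median difference 0.34) and both red cell genes (median 0.30) above 0. Of 11 genes of enteric neurons and glia 7 lay above 0 (median 0.01). Fewer cells of a type and less RNA per cell cannot be told apart in tissue RNA, and the part of cell content in these ratios was not tested.

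Of the genes of the kinases that cAMP and AMP activate, 0 were called in any comparison. Prkaca encodes the main catalytic subunit of PKA. Its ratios were -0.13, -0.37, -0.20, -0.18 and -0.04 at 4 h and 0.23, 0.06, 0.06 and 0.11 at 20 min. All 4 h arrays were below 0 and all 20 min arrays above, but the same-RNA array 1HG read 1.51 with 3HG at 0.02 and 3HF at -0.07. The difference between the times was -0.30 ± 0.26 (SE; adjusted p = 0.687; 95% interval -0.86 to 0.27), with an error that includes that array, since all groups share the estimate of the spread. From same RNA Prkaca differed by -0.67 ± 0.28 at 4 h (adjusted p = 0.466) and by -0.16 without 1HG. The other catalytic subunit Prkacb differed by 0.01 ± 0.11 between the times. The regulatory subunits, which hold the catalytic ones inactive, differed by 0.22 ± 0.13 (Prkar1a), 0.01 ± 0.08 (Prkar2a) and 0.04 ± 0.11 (Prkar2b). At 20 min Prkar1a lay below same RNA on all 4 arrays, by -0.20 ± 0.14 (adjusted p = 0.867), and Prkar2b differed by -0.24 ± 0.12 (adjusted p = 0.801).

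In AMPK, the sensor of low energy that sugar supply is known to quiet, Prkag1 had the largest difference. This nucleotide-binding gamma subunit read 0.32, 0.05, 0.37, -0.01 and 0.70 at 4 h and -0.07, -0.19 and -0.04 with the same RNA. The groups did not overlap, and the difference was 0.39 ± 0.15 (SE; adjusted p = 0.446). At 20 min Prkag1 ranged from -0.12 to 0.27. The beta subunit Prkab1 differed by 0.25 ± 0.14 at 4 h (adjusted p = 0.502) and by 0.10 without 1HG, and its relative Prkab2 was positive on all 12 arrays, with means of 0.43, 0.50 and 0.36. The catalytic subunits Prkaa1 and Prkaa2 differed by 0.14 and -0.01 at 4 h. The 5 AMPK genes had a median of 0.14 at 4 h and 0.13 at 20 min, with 0 called.

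Phospholipases C split a membrane phosphoinositide into IP3 and diacylglycerol, and 0 of the 7 were called at 4 h against same RNA. Plcg2, the isoform of blood cells that tyrosine kinases activate, read -0.29, 0.09, -0.10, -0.21 and 0.07 at 4 h, -0.17, -0.14, -0.36 and -0.07 at 20 min, and 0.86, 1.49 and 0.15 on the same-RNA arrays. All 9 arrays of HG against HF lay below all 3 same-RNA arrays. The differences were -0.92 ± 0.23 at 4 h (SE; adjusted p = 0.214) and -1.02 ± 0.24 at 20 min (adjusted p = 0.801), the latter with an unadjusted p of 0.00112. Without 3HF, the lowest of the same-RNA arrays, Plcg2 was called at both times, at -1.26 (adjusted p = 0.0189) and -1.36 (adjusted p = 0.0395). Without 3HG the differences were -0.59 and -0.69. Between the times Plcg2 differed by 0.10 ± 0.21 (adjusted p = 0.91). Its mean was -0.09 ± 0.16 (SD, n = 5) at 4 h and -0.19 ± 0.12 (n = 4) at 20 min, and the primer array read 0.34.

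Plcb2, which Gq and beta-gamma subunits activate, read 2.76 on the same-RNA array 3HG against -0.25 and -0.06 on the other same-RNA arrays. Its difference at 4 h, -1.24 ± 0.53 (SE; adjusted p = 0.467), was -0.27 without that array. Between the times Plcb2 stood at -0.42 ± 0.27 (SD, n = 5) at 4 h and 0.01 ± 0.27 (n = 4), a difference of -0.43 ± 0.49 (SE). Plcb4, another beta isoform, read -1.16, -0.62, -0.29, -0.53 and -0.37 at 4 h and 0.28, -0.60, 0.07 and -0.31 at 20 min. It was negative on all 4 h arrays, and the difference between the times was -0.45 ± 0.24 (adjusted p = 0.435). Plcd1, a calcium-driven isoform, read -0.18, -0.30, -0.61, -0.41 and -0.04 at 4 h and -0.06, 0.67, 0.07 and 0.19 at 20 min. Only the lowest 20 min array and the highest 4 h array overlapped, and the difference was -0.52 ± 0.18 (SE; 1.44-fold; adjusted p = 0.214). Plcb1 and Plcg1 differed by -0.21 and -0.20 between the times, and Plcd4 by 0.12 ± 0.20. The 3 IP3 receptors Itpr1, Itpr2 and Itpr3, the calcium release channels, differed by -0.18, -0.12 and -0.23, with adjusted p of 0.604, 0.805 and 0.847. Leaving out 1 array at a time gave -0.26 to -0.08 for Itpr1, the latter without 20 min replicate 3. Itpr3, the isoform of epithelia and taste cells, read -1.88 on array 1HG, and its difference of 0.69 ± 0.39 at 20 min became 0.06 without it.

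**Figure D4:**
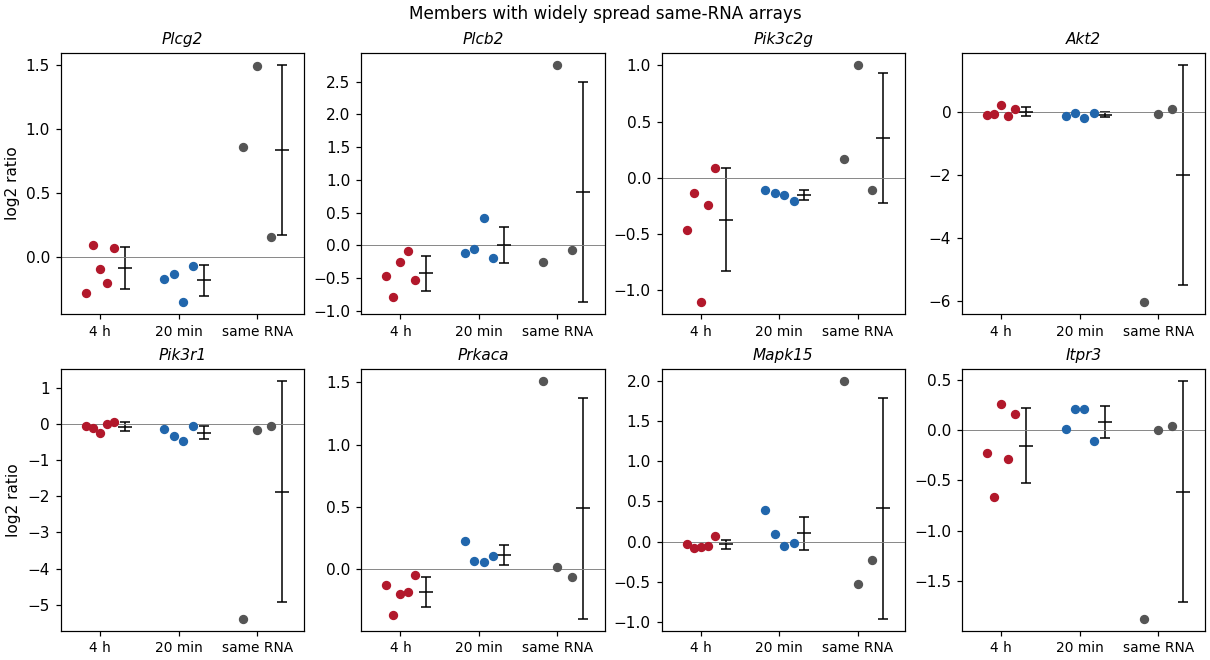
Log2 ratio of each array (points) for 8 genes whose same-RNA arrays (1HG, 3HG and 3HF, left to right) are widely spread, with the mean and SD of each group (bars, n = 5, 4 and 3). Each panel has its own scale. A single same-RNA array lies far from the others for Akt2 (-6.04), Pik3r1 (-5.39) and Plcb2 (2.76). The arrays of HG against HF lie between -0.17 and 0.22 for Akt2, -0.46 and 0.05 for Pik3r1, and -0.78 and 0.41 for Plcb2.

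Of the 8 protein kinases C 0 were called. Prkcd, an isoform that diacylglycerol activates without calcium, read -0.19, -0.30, -0.22, -0.19 and -0.10 at 4 h and -0.27, 0.10, 0.31 and 0.20 at 20 min. Apart from 20 min replicate 1, the 20 min arrays lay above the 4 h arrays, and the difference was -0.28 ± 0.11 (SE; adjusted p = 0.296). Prkce, of the same class, had the opposite sign at 0.34 ± 0.21 between the times. The classical isoforms Prkca and Prkcb, which calcium and diacylglycerol activate together, differed by -0.07 and 0.05. Prkch, Prkci, Prkcq and Prkcz differed by 0.05, 0.10, -0.24 and 0.13.

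In the PI3-kinase and Akt route 0 of 8 genes were called. Pik3cb encodes a catalytic subunit that G proteins can activate. It read -0.27, -0.31, 0.02, -0.10 and -0.46 at 4 h and 0.28, 0.15, 0.01 and 0.00 at 20 min, with same-RNA arrays between -0.13 and -0.03. The groups overlapped by 1 array, and the difference was -0.33 ± 0.11 (SE; 1.26-fold; adjusted p = 0.206). Pik3c2g, a class II enzyme, differed from same RNA by -0.73 ± 0.27 at 4 h (adjusted p = 0.409) and by -0.40 without 3HG, on which it read 1.01. Akt2, the kinase through which insulin acts on glucose handling, had the largest difference of the 99 genes, 2.02 ± 1.06 (SE; adjusted p = 0.492) at 4 h and 1.92 ± 1.11 at 20 min. Its ratio was -6.04 on the same-RNA array 1HG, with 3HG at -0.06 and 3HF at 0.12, and the differences were -0.01 and -0.10 without it. Pik3r1, the main regulatory subunit, likewise read -5.39 on 1HG, and its difference of 1.79 ± 0.92 at 4 h became 0.03. On the 9 arrays of HG against HF Akt2 stayed between -0.17 and 0.22 and Pik3r1 between -0.46 and 0.05. Akt1 read 1.85 on 1HG and differed by -0.08 ± 0.36 between the times, or by -0.14 without 20 min replicate 4 and -0.05 without 4 h replicate 1. Pik3r2 and Pik3r3, further regulatory subunits, and Pik3c3, the class III enzyme of autophagy, differed by -0.04, -0.18 and -0.04. Pik3r3 read -1.19 on 4 h replicate 2 and between -0.07 and 0.18 on the other 4 h arrays.

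In the MAP kinase cascades 0 of 17 genes were called. Map2k5, which activates the MAP kinase encoded by Mapk7, read 0.22, -0.36, -0.60, -0.17 and 0.08 at 4 h and 0.68, 0.80, 0.71 and -0.11 at 20 min. Replicates 1, 2 and 3 at 20 min lay above all other arrays, replicate 4 did not, and the same-RNA arrays read between -0.25 and 0.11. The difference was -0.68 ± 0.21 between the times (SE; 1.61-fold; adjusted p = 0.179) and 0.53 ± 0.24 at 20 min from same RNA (adjusted p = 0.801). Its target Mapk7 had means of -0.11 ± 0.26 and -0.10 ± 0.35 (SD) at the times and -0.43 ± 0.13 on the same-RNA arrays. Map2k1 and Map2k2, which activate ERK, differed by -0.01 and -0.11 between the times. Among MAP3 kinases Map3k12, known from neurons, differed by -0.27 ± 0.12 at 20 min (SE; adjusted p = 0.801), where 4 arrays between -0.35 and -0.07 lay below same-RNA arrays of about 0.10. Map3k8, a kinase of inflammatory signalling, was higher at 20 min by 0.17 ± 0.09 (adjusted p = 0.801), and Map3k1 differed by -0.24 ± 0.21 at 20 min, or by 0.0051 without 3HG.

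The stress kinase Mapk14 differed by 0.24 from same RNA at both times (adjusted p = 0.492 and 0.801) and by 0.00 ± 0.12 between them. The JNK genes Mapk8, Mapk9 and Mapk10 differed by -0.07, 0.06 and -0.05 between the times, and Mapk8ip1, their scaffold, by -0.14 ± 0.12, or by -0.07 without 20 min replicate 1 and -0.08 without 4 h replicate 5. Mapk10 was negative on all 12 arrays, and so was Mapk4, an atypical MAP kinase, with means of -0.55, -0.56 and -0.40. Mapk6, the closest relative of Mapk4, differed by 0.11 ± 0.16. The p38 isoforms Mapk12 and Mapk13 had differences of -0.15 and -0.17. Leaving out 1 array at a time gave -0.26 (without 20 min replicate 3) to -0.07 (without 20 min replicate 1 or 2) for Mapk12, and -0.09 without 4 h replicate 3. Mapk15 read 2.00 on array 1HG and between -0.08 and 0.39 on the arrays of HG against HF.

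A ratio of 1 sign on all 12 arrays, same-RNA arrays included, was found in 8 of the 99 genes and in 7.9% of all features. It was positive for Adcy6, Gnaz, Pde4dip and Prkab2 and negative for Gna11, Gna12, Mapk10 and Mapk4. Set against 0 rather than against the same-RNA arrays, 14 of the 99 genes had a ratio that passed at 4 h, against 16.3% of all features, and 8 at 20 min, against 8.2%. All 8 at 20 min except Gng4 and all of the 14 at 4 h except Gna15, Gnaq, Gng12, Itpr1, Pde5a and Plcb4 were among those 8 genes of 1 sign. A ratio against 0 holds what the probe gives with the same RNA in both channels as well as any difference between HF and HG. For Gnaq it was -0.52 ± 0.07 at 4 h (SE; adjusted p = 0.000382).

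Array 6 was read apart, since its dyes are likely swapped. Relative to the median of the same-RNA arrays, 50 of the 99 genes had the opposite sign on it from the mean of the 4 h arrays, against 46.6% of all features. Its largest ratios among the 99 were 4.31 for Pde1c, 3.96 for Adcy6, 3.08 for Gnb5 and 3.02 for Gnaz. These 4 also read above 0 on all 3 same-RNA arrays.

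Further genes of the same routes were listed by symbol. Of 22 other genes of the cAMP route, such as anchoring proteins and PKA inhibitors, 0 were called in any comparison, and 15 lay below 0 between the times (median -0.07). Rapgef3, which encodes the cAMP-activated exchange factor Epac, had means of -0.37 ± 0.37 (SD, n = 5) at 4 h and 0.09 ± 0.09 (n = 4) at 20 min, a difference of -0.46 ± 0.18 (SE; adjusted p = 0.285). The PKA inhibitor Pkib differed by -0.42 ± 0.14 from same RNA at 4 h (adjusted p = 0.374). The symbol pattern of that list also took the phosphatase regulators Ppp1r10, Ppp1r12a and Ppp1r15a. Of 23 G protein regulators 0 were called and 15 lay below 0 between the times (median -0.07), with Rgs9 at -0.69 ± 0.24 (adjusted p = 0.218) and Rgs6 at 0.33 ± 0.11 (adjusted p = 0.223), both of which speed the shut-off of alpha subunits.

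Of 29 other phosphoinositide genes 0 were called, with 15 below 0 between the times (median 0.00). The lipid kinase Pi4kb, at 0.31 ± 0.10 (SE; adjusted p = 0.184), and the lipid transfer protein Pitpnb, at 0.32 ± 0.11 (adjusted p = 0.217), had the smallest p. Of 29 calcium and calmodulin genes 0 were called (median 0.00), with Camk2b at 0.33 ± 0.12 (adjusted p = 0.245). Of 21 further genes of the Ras and MAP kinase route 0 were called (median 0.00). Dusp6, the ERK phosphatase whose gene ERK signalling is known to induce, stood at -0.58 ± 0.45 (SD, n = 5) at 4 h, 0.27 ± 0.32 (n = 4) at 20 min and 0.33 ± 0.18 (n = 3) with the same RNA. Its difference of -0.85 ± 0.22 (SE) between the times was the largest of these 5 lists and did not pass (adjusted p = 0.13).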

How the data were processed

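The authors deposited 1 table of log ratios of 14 two-colour arrays, treated here as log2 values. Per the labels, channel 1 holds HG and channel 2 HF on the arrays of HG against HF that entered the tests. Not given in the sources used here were base, direction, scanner, background correction and normalization. The deposited medians, from -0.07 to 0.02, are near 0. Of 4952 probes 4426 have 1 symbol in the platform annotation, 2 several and 524 none. Each array was centred on its median and probes of a symbol were averaged (4 of the 99 genes have 2 probes), giving 4682 features. All 99 genes matched the RefSeq gene table by Entrez identifier. Tests used limma 3.58.1 in R 4.3.3, with 1 fit of 12 arrays in 3 groups, 9 residual and 2.84 prior degrees of freedom, and Benjamini-Hochberg adjustment over all features. Array 6 and the primer array were left out. The steps were tested on simulated data. Members, lists and tests were chosen with earlier results of these data known. Named were called members, the 6 of smallest p in each direction of a comparison, the leading member of each role, and genes whose probes differ by over 0.5 in a group mean; others are named to account for every member. Alternatives changed scaling, centring, probe averaging, weights, variance shrinkage, the control, array 6, the pair number as a block and each array left out. The number of arrays limits precision, and signal over background is unknown, so no filter on dim probes was possible.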

Additional observations from a re-analysis of the deposited data

Results flagged for a closer look

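Among the 4 h arrays, replicate 3 of Gnaq stood above the others at -0.26 and replicate 1 of Gnaz below them at 0.0216. Among the 20 min arrays, replicate 4 of Map2k5 stood below the others at -0.11. Each lay farther from its nearest neighbour than Dixon's 95% critical value allows, in 68 groups of arrays examined, and chance alone marks about 1 group in 20.

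Gnaq had a ratio that differed between 4 h and 20 min by -0.59 on the log2 scale (limma, adjusted p = 0.0312).

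Array 6, which was left out of the 3 comparisons and averaged in only as an alternative, gave ratios of 3.96 for Adcy6, 3.02 for Gnaz, 1.83 for Gng4 and -1.28 for Prkce, beyond those of the same-RNA arrays.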

How the results depend on the processing

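For 4 h and for 20 min against same RNA, 0 genes were called under all alternatives except that 14 and 8 were called against 0, and leaving out 1 array gave 0 to 1 in both, with Plcg2 called without same-RNA array 3HF. Between the times the count of 1 became 0 with arrays scaled to 1 spread, with quantile normalization, with array 6 averaged in as deposited or with its sign turned, and with the replicate block, and was 0 to 1 with 1 array left out. With the pair number as a replicate block Gnaq differed by -0.57 (adjusted p = 0.103). Deviations of arrays of the same number from their group means, correlated across features between the 2 times, gave -0.07, 0.16, -0.03 and -0.02. Only number 2 at 20 min correlated best with its own number at 4 h, so the numbers were not taken as pairs. Of 821 values of named genes under alternatives, 793 kept direction and side of the threshold, 13 no longer passed, 8 newly passed and 7 turned sign. Those that turned were Pik3r1 at 4 h against 0 (-0.0743), Akt2 at 4 h, which ran from -0.00642 to 3.07 with 1 array left out, Adcy6 between the times with array 6 turned (-0.11), and Gnai2 between the times, at 0.0612 with array 6 as deposited and from -0.10 to 0.0583 with 1 array left out. The cause was not tested. Signal over background is unknown.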
